A study of Homo sapiens with 6 samples.

Results

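Nuclear-encoded subunits of the respiratory chain and of ATP synthase were followed in KHOS and U-2OS, both established human osteosarcoma cell lines. The members were the genes whose symbols start with NDUFA, NDUFB, NDUFC, NDUFS, NDUFV, UQCR, COX4 to COX8 or ATP5, or are SDHA to SDHD, with a probe set that maps to 1 symbol. Of 173 probe sets that matched, 16 of NDUFAF assembly factors, 2 of pseudogenes and 4 of antisense or divergent non-coding genes were left out. This kept 151 of 54675 probe sets and 77 of 19775 genes, with 33 genes in complex I, 3 in complex II, 6 in complex III, 17 in complex IV and 18 in ATP synthase. Subunits with no such probe set, among them SDHB, NDUFS8, UQCRFS1, NDUFA4 and NDUFA4L2, were not analysed here.

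Each line had 1 array for each of 3 conditions: cells transfected for 48 hours with the miR-1 vector (miRSelect pEP-miR-1), cells transfected likewise with the miR-null vector (miRSelect pEP-miR-Null, the matching vector without miR-1), and control cells. Lipofectamine LTX and Plus Reagent carried the vectors, and the RNA on an array was pooled over 3 flasks. No vector is named for the control cells, nor is it stated whether they were given the transfection reagents alone. Pooling leaves no spread between flasks in the values, and the only repeat of a condition is the other line. The p-values therefore rest on how far the conditions differ between the lines. Where miR-1 and miR-null arrays form 1 group, they rest also on how far those arrays differ.

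Complexes I to IV of the inner mitochondrial membrane pass electrons from NADH and succinate to oxygen, and complexes I, III and IV pump protons as they do so. ATP synthase lets the protons flow back through its membrane part, Fo, which turns a rotor inside the catalytic head, F1, where ATP is made. Nuclear genes encode most subunits and all of complex II, while the mitochondrial genome encodes a few hydrophobic cores. NRF-1 and the ETS factor GABP, also called NRF-2, are transcription factors known for binding near the start sites of many of these genes.

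The sequences shown are the miRNA that the vector carries and 4 promoters, chosen because they place the same binding letters before genes that differed between the lines in opposite directions. They are RefSeq sequences of build GRCh38.p14, read 5′ to 3′ on the strand of the gene, with the 250 bases before the annotated start. Capitals mark the seed, bases 2 to 8, in the miRNA. In the promoters they mark the NRF-1 palindrome GCGCATGCGC or the ETS core CCGGAAG, which reads CTTCCGG on the other strand. ATP5F1C (chr10:7787927-7788176, plus strand) was higher in KHOS and SDHD (chr11:112086623-112086872, plus strand) lower, and both hold the palindrome. NDUFS1 (chr2:206159445-206159694, minus strand) was higher in KHOS and ATP5PD (chr17:75046970-75047219, minus strand) lower, and both hold the ETS core, as SDHD also does.
hsa-miR-1-3p: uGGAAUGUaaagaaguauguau
ATP5F1C: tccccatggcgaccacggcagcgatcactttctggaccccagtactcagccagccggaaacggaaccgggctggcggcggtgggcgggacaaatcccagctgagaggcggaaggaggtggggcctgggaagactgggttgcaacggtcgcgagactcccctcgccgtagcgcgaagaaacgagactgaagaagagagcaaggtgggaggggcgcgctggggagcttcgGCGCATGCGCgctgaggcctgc
SDHD: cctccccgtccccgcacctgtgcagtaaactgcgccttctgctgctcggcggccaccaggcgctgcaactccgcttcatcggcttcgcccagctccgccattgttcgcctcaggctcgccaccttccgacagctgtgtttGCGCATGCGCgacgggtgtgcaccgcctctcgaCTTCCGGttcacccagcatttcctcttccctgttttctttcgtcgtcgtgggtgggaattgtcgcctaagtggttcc
NDUFS1: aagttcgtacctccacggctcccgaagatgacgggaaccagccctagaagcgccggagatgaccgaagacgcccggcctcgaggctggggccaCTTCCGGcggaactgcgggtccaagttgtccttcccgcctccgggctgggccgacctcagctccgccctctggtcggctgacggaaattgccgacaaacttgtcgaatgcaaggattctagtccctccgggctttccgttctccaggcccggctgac
ATP5PD: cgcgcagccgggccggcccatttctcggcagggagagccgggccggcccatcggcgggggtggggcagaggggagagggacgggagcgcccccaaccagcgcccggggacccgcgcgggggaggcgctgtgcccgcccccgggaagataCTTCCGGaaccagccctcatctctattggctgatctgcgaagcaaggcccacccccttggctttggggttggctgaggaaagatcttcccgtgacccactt

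Windows of 300 bases (250 before and 50 after the start) were found for 66 of the 77 genes and searched on both strands. The palindrome stood in 4 of them (6.06%), in ATP5F1C, NDUFA8, NDUFB4 and SDHD, against 1.75% of 15843 protein-coding promoters. The ETS core stood in 18 (27.3%), against 14.2% of protein-coding promoters, and 21 (31.8%) held either motif, against 15.6%. By position in the complexes, the ETS core was in 5 of 10 windows of the Fo and stalk subunits, in 5 of 14 of complex IV and in 3 of 26 of the complex I accessory subunits. Of the members higher in KHOS, 5 of 21 windows held either motif, against 3 of 10 of those lower in KHOS and 13 of 32 of those that did not pass the test. A match describes the letters of a window and shows no binding.

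The values are log2 hybridization signals, so a step of 1 is a doubling. A probe set's value also depends on its probes, and no order of level is read between genes. The members lay high on this scale: their mean over the 6 arrays had a median of 11.70 over the 77 genes, against 7.75 over the 12958 genes tested. By complex, the mean level ran from NDUFB7 (9.31) to NDUFB9 (13.31) in complex I, from SDHC (10.23) to SDHD (11.29) in complex II, from UQCRC1 (10.91) to UQCRB (12.73) in complex III, from COX8C (3.50) to COX7C (13.26) in complex IV and from ATP5MF (4.90) to ATP5MK (13.38) in ATP synthase. Tested genes are those with a mean at or above the median of all probe sets, 5.11, and 73 members passed that filter. The 4 below it were COX6A2, the heart and muscle form of subunit 6A, the testis forms COX7B2 and COX8C, and ATP5MF, a small Fo subunit whose only probe set with 1 symbol read 4.57 to 5.30. Of the mesenchymal and osteoblast markers, 6 of 8 reached the filter, among them VIM with a mean of 13.78, SPARC with 11.21 and COL1A1 with 10.72, while COL1A2 (4.50) and ALPL (4.14) did not. Of the epithelial markers 3 of 5 reached it (KRT18, KRT8 and EPCAM), of the blood markers 2 of 3 (CD3E and HBB, with PTPRC at 3.60), and of the endothelial markers 1 of 3 (PECAM1, with CDH5 at 3.70). Correlations over all probe sets were 0.978 to 0.996 within a line and 0.910 to 0.937 between the lines. The interquartile range of the array was 3.24 to 3.35 in KHOS. In U-2OS it was 2.75 with miR-1, 2.84 with miR-null and 3.07 in control. The mean of the hybridization spike-ins was 9.76 to 10.13 on the KHOS arrays. On the U-2OS arrays it was 11.65 with miR-1, 11.33 with miR-null and 10.81 in control. These array measures moved with line and with vector, and their part in the results was not tested.

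**Figure D1:**
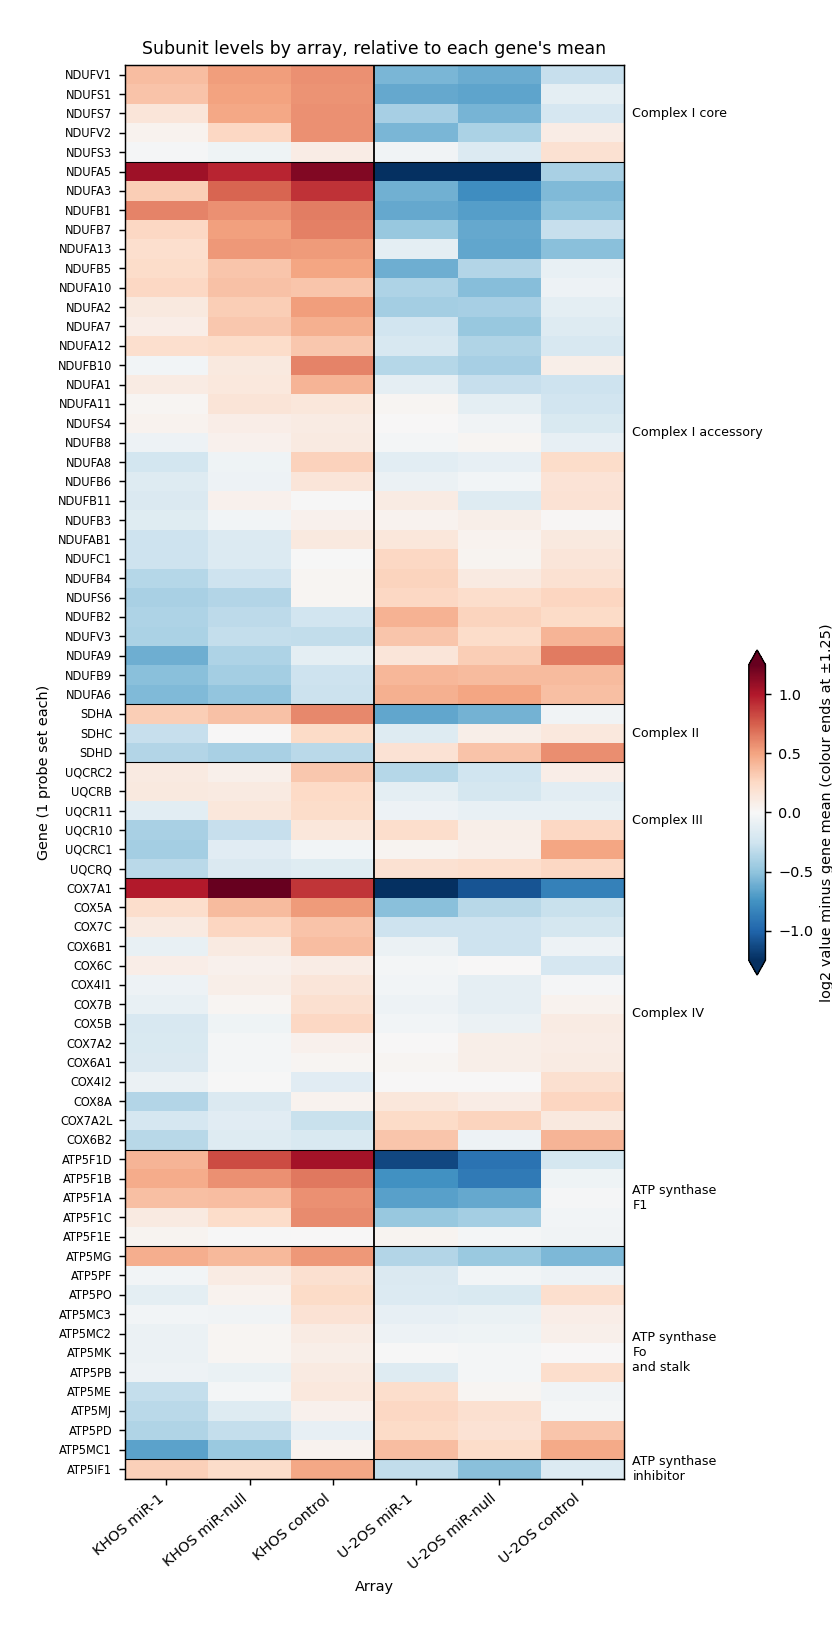
Log2 value minus the gene's mean over the 6 arrays, for the 73 tested subunit genes in rows, grouped by complex and ordered by the line difference, with 1 array a column; red is above the gene's mean and blue below it. Most F1 and complex I core rows are redder in KHOS than in U-2OS, ATP5F1E and NDUFS3 excepted, and in 46 of the 73 rows the control column is the highest of its line in both lines.

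Between the lines the subunits differed in both directions. In the F1 head of ATP synthase and in the complex I core 4 of 5 subunits each were higher in KHOS and 0 lower, with medians of 0.89 and 0.80 on the log2 scale. Of 14 tested subunits of complex IV 3 were higher and 1 lower (median 0.05), where the 3 include COX7A1, which passed the level filter only through its KHOS values, and of 6 of complex III 0 were higher and 1 lower (median -0.10). In all, and with COX7A1 counted, 25 of the 73 members were higher and 11 lower in KHOS than in U-2OS (limma, adjusted p under 0.05), which is 49.3% of them. Across all 12958 genes 54.8% passed (30.3% higher and 24.5% lower), so the members' share lay near the background. All 3 KHOS arrays stood above all 3 U-2OS arrays in 27 members (32.7% of all genes) and below them in 18 (32.2% of all genes). The median line difference of the members was 0.09 on the log2 scale, against 0.00 over all genes. In lysates of many cells, fewer cells with a transcript and less transcript per cell cannot be told apart.

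The counts moved with scale and with single arrays. With a further quantile normalization 22 members were higher and 16 lower, with a median of -0.03, and with each array centred on its median 28 were higher and 7 lower, with a median of 0.20. The same scalings set the median of all genes at -0.18 and 0.12. The members that passed were then 52.1% and 47.9%, against 56.3% and 51.4% of all genes. Without either miR-null array 13 members were higher and 4 lower in KHOS, and without either miR-1 array 21 and 5. Without either control array the counts were 26 and 15. In the same order 23.3%, 35.6% and 56.2% of the members passed, against 34.5%, 38.8% and 67.6% of all genes. Leaving out the array of either line for a condition gives the same fit of the line difference.

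**Figure D2:**
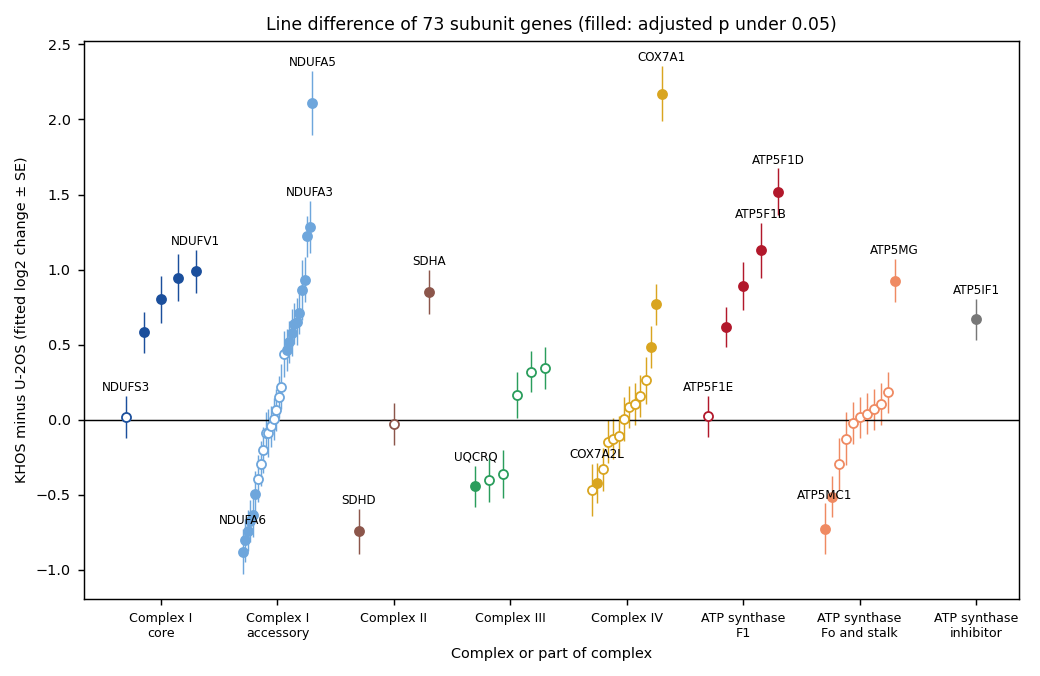
Fitted KHOS minus U-2OS difference in log2 units with its SE (bars) for each tested subunit, by complex; filled points passed at an adjusted p under 0.05 over all genes, from 3 arrays a line. NDUFA5 and COX7A1 lie above 2, and the 6 points of complex III lie between -0.44 and 0.35.

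The complex I core holds the subunits that take electrons from NADH and hand them along iron-sulfur clusters to quinone. NDUFV1, the subunit that binds NADH and flavin, read 10.76, 10.91 and 10.96 in KHOS miR-1, miR-null and control, against 9.81, 9.76 and 10.10 in U-2OS in the same order. NDUFS1, the largest iron-sulfur subunit, read 10.68, 10.82 and 10.88 in KHOS, against 9.68, 9.66 and 10.20 in U-2OS. In both genes every KHOS array was above every U-2OS array. The fitted differences were 0.99 ± 0.14 for NDUFV1 and 0.94 ± 0.16 for NDUFS1 (SE, n = 3 arrays a line, limma adjusted p = 0.00189 and 0.0033). NDUFS7, the iron-sulfur subunit nearest to the quinone site, differed by 0.80 ± 0.16 and NDUFV2, another iron-sulfur subunit, by 0.58 ± 0.14 (limma adjusted p = 0.00646 and 0.0133). The NDUFV2 arrays of the lines overlapped, because the U-2OS control array (11.90) lay above the KHOS miR-1 array (11.85). NDUFS3 differed by 0.02 ± 0.14 and did not pass, with a 95% interval of -0.32 to 0.35. Without either miR-null array 2 of the 5 core subunits passed, and without either miR-1 array 3 did. Other probe sets of these genes did not all move the same way. A dim NDUFV1 probe set read 5.01 to 5.31 in KHOS and 5.58 to 5.82 in U-2OS, a difference of -0.56, and the mean of both NDUFV1 probe sets (0.21) did not pass. The 4 NDUFS1 probe sets above the filter ranged from -0.16 to 2.42, and of the pair for NDUFS7 the dimmer differed by -0.03.

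Accessory subunits of complex I, which surround the core and serve its assembly and stability, split between the directions, with 11 of 28 higher and 6 lower in KHOS. The largest was NDUFA5, a subunit of the arm that projects into the matrix. It read 11.07, 10.96 and 11.16 in KHOS miR-1, miR-null and control, against 8.50, 8.76 and 9.61 in U-2OS. The lines did not overlap, and U-2OS control was nearest to KHOS. The difference was 2.11 ± 0.21, or 4.31-fold (limma adjusted p = 0.000466). NDUFA3 (1.29 ± 0.17), NDUFB1 (1.22 ± 0.14), NDUFB7 (0.93 ± 0.15) and NDUFA13 (0.86 ± 0.20), all subunits of the membrane arm, were also higher. NDUFA13, also known as GRIM-19, differed by 0.34 between the miR-1 arrays, 1.19 between the miR-null arrays and 1.06 between the controls, and it did not pass without either miR-null array (limma adjusted p = 0.0734). The other 6 accessory subunits that were higher, NDUFB5, NDUFA10, NDUFA2, NDUFA7, NDUFA12 and NDUFB10, differed by 0.47 to 0.71.

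The 6 accessory subunits lower in KHOS included NDUFA6 and NDUFB9, both of the LYR protein family and both known to bind the acyl carrier protein NDUFAB1. NDUFA6 read 11.38, 11.44 and 11.66 in KHOS miR-1, miR-null and control, against 12.38, 12.42 and 12.31 in U-2OS. NDUFB9 read 12.79, 12.89 and 13.05 in KHOS, against 13.73, 13.70 and 13.70 in U-2OS. Both genes were without overlap between the lines, and U-2OS changed little across conditions. The differences were -0.88 ± 0.15 for NDUFA6 and -0.80 ± 0.14 for NDUFB9 (limma adjusted p = 0.0036 and 0.00427). NDUFAB1 itself, their partner, differed by -0.20 ± 0.15 and did not pass. NDUFA9, which sits near the quinone site, differed by -0.74 ± 0.14, NDUFB2 by -0.64 ± 0.15 and NDUFS6, a zinc-binding subunit, by -0.50 ± 0.15. NDUFB2 and NDUFS6 did not pass without either miR-1 array (limma adjusted p = 0.0682 and 0.159) or without either miR-null array (0.082 and 0.224). NDUFV3 was lower by its brighter probe set (-0.67 ± 0.14) and higher by the dimmer one (0.68), and the mean of both differed by 0.01.

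In complex II, succinate dehydrogenase, the catalytic subunit SDHA and 1 of the membrane anchors, SDHD, differed in opposite directions. SDHA, the flavin-bearing catalytic subunit, read 10.63, 10.69 and 10.93 in KHOS miR-1, miR-null and control, against 9.68, 9.74 and 10.28 in U-2OS. These values come from its only probe set with 1 symbol, whose x_at suffix marks probes shared with other sequences. SDHD, a membrane anchor, read 10.92, 10.88 and 10.94 in KHOS, against 11.46, 11.64 and 11.86 in U-2OS. The lines did not overlap in either gene, with SDHA higher by 0.85 ± 0.15 and SDHD lower, at -0.74 ± 0.15, in KHOS (limma adjusted p = 0.00384 and 0.00674). The SDHD call was lost without either miR-null array, at a limma adjusted p of 0.053. SDHC, the other anchor, read 9.94, 10.23 and 10.47 in KHOS, against 10.07, 10.30 and 10.35 in U-2OS, and differed by -0.03 ± 0.14 with overlap. Its 6 probe sets above the filter ranged from -0.33 to 0.49.

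Complex III, which passes electrons from quinol to cytochrome c, showed little line difference. UQCRQ was the only one of its 6 measured subunits to pass, at -0.44 ± 0.14, and it did not pass without either miR-1 array or either miR-null array (limma adjusted p = 0.151 and 0.199). The core proteins UQCRC1 and UQCRC2 differed by -0.40 ± 0.15 and 0.35 ± 0.14 and did not pass. Centring the arrays on their medians turned this count to 2 higher and 0 lower, and quantile normalization to 0 higher and 3 lower.

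Complex IV, cytochrome c oxidase, has subunits with a general form and a form known from particular tissues. COX7A1, the heart and muscle form of subunit 7A, read 6.90, 7.28 and 6.79 in KHOS miR-1, miR-null and control, against 4.57, 4.82 and 5.06 in U-2OS. All KHOS values lay above all U-2OS values. The U-2OS values were below the level filter of 5.11, so the gene entered the test through KHOS alone, and its place among the calls is no support for a difference. COX7A2, the general form, read 12.12, 12.28 and 12.36 in KHOS, against 12.31, 12.38 and 12.40 in U-2OS, and differed by -0.11 ± 0.14 with overlap. The muscle markers MYH7, MYOD1, MYOG and DES did not follow COX7A1: their mean per array was 4.86 to 5.03 in KHOS and 5.05 to 5.41 in U-2OS, and 2 of the 4 reached the filter.

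The other pairs of forms did not differ at the threshold on the probe set used for each gene. COX4I1, the general form of subunit 4, ranged from 12.84 to 13.09 over all 6 arrays on its brightest probe set. The 3 COX4I1 probe sets above the filter differed by 0.11 to 0.85 between the lines. COX4I2, the form known from lung, ranged from 5.63 to 5.97. COX6A1 differed by -0.13 ± 0.14 in KHOS, against U-2OS, while the muscle form COX6A2 stayed between 4.45 and 5.24. COX6B1 differed by 0.26 ± 0.16 and the testis form COX6B2 by -0.47 ± 0.17 (limma adjusted p = 0.0557), a gene near the level filter at 4.80 to 5.58. COX8A differed by -0.33 ± 0.14 (limma adjusted p = 0.0922), and COX8C was at 3.35 to 3.67 on all arrays. COX5A (0.77 ± 0.14) and COX7C (0.49 ± 0.14) were higher in KHOS. COX7A2L, also called SCAF1 and known for joining complexes III and IV, was lower at -0.42 ± 0.14. It read 11.81, 11.88 and 11.74 in KHOS, against 12.26, 12.30 and 12.14 in U-2OS, without overlap, and its call was lost without either miR-1 array or either miR-null array (limma adjusted p = 0.145 and 0.25).

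**Figure D3:**
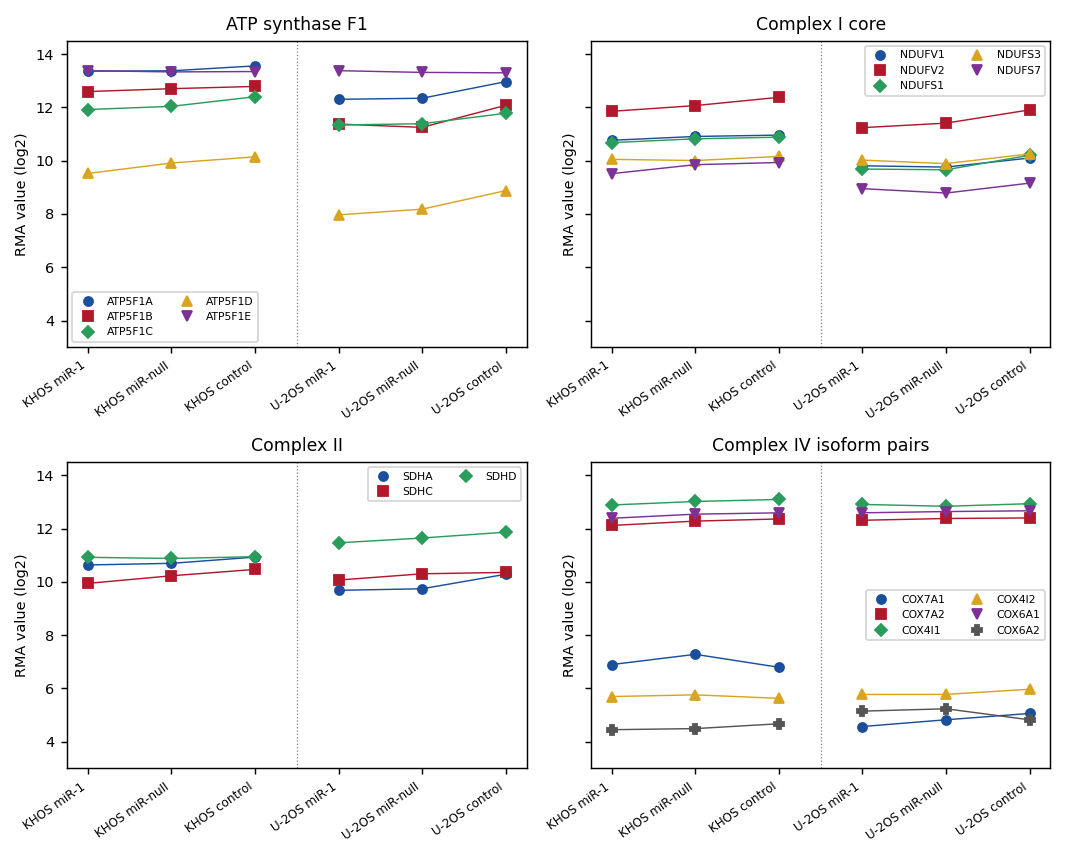
RMA log2 values on each of the 6 arrays, for the F1 subunits, the complex I core, complex II and the tissue forms of complex IV; each point is 1 array and lines join the arrays of a cell line. ATP5F1D and COX7A1 show the widest gap between the lines in their panels, and ATP5F1E reads 13.30 to 13.38 throughout.

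In ATP synthase 8 of 17 tested subunits passed between the lines, 4 of them in the F1 head. ATP5F1A and ATP5F1B, the alpha and beta subunits that form the catalytic ring, ATP5F1C, the gamma subunit of the rotor, and ATP5F1D, the delta subunit at its foot, were all higher in KHOS. ATP5F1D read 9.52, 9.91 and 10.14 in KHOS miR-1, miR-null and control, against 7.96, 8.18 and 8.87 in U-2OS. ATP5F1B read 12.59, 12.70 and 12.79 in KHOS, against 11.37, 11.25 and 12.07 in U-2OS. The lines did not overlap in these genes, and in both the U-2OS control array was nearest to KHOS. The differences were 1.52 ± 0.16 for ATP5F1D, 1.13 ± 0.18 for ATP5F1B, 0.89 ± 0.16 for ATP5F1A and 0.62 ± 0.14 for ATP5F1C (limma adjusted p = 0.000482, 0.003, 0.00437 and 0.00973). ATP5F1E, the epsilon subunit, was nearly level over the 6 arrays and differed by 0.02 ± 0.14. The median over the F1 subunits was 0.89, 0.80 after quantile normalization and 1.01 with arrays centred on their medians. Without either miR-null array 3 of the 5 passed.

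Of the 11 Fo and stalk subunits 1 was higher and 2 lower, with a median of 0.02. The difference between F1 and the other parts was not tested. ATP5MG, subunit g, was higher by 0.93 ± 0.14 on its brightest probe set, one of 3 with the x_at suffix that marks probes shared with other sequences. The 3 read 12.44 to 13.81 and differed by 0.91 to 0.95 between the lines. The remaining ATP5MG probe set read 11.14, 11.09 and 11.32 in KHOS miR-1, miR-null and control, against 6.92, 6.87 and 7.52 in U-2OS, a difference of 4.08. ATP5MC1, a gene for the c subunit of the rotor ring, read 10.37, 10.58 and 11.09 in KHOS, against 11.43, 11.27 and 11.52 in U-2OS. It was lower by -0.73 ± 0.17 (limma adjusted p = 0.0121). ATP5MC2 (0.04 ± 0.14) and ATP5MC3 (0.07 ± 0.14), which encode the same mature protein, did not pass on their brightest probe sets. The 3 ATP5MC3 probe sets above the filter ranged from 0.07 to 1.24. ATP5PD, a subunit of the outer stalk, was lower at -0.51 ± 0.14. The calls of ATP5MC1 and ATP5PD were lost without either miR-1 array (limma adjusted p = 0.0644 and 0.106) and without either miR-null array (0.0548 and 0.149). ATP5IF1, the inhibitor that binds F1 and stops it from running in reverse, was higher by 0.67 ± 0.14 (limma adjusted p = 0.00761).

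Of the 32 members with several probe sets above the filter, 19 had the same sign of the line difference on all of them, and so did 11 of the 17 among them that passed. The exceptions that passed were NDUFV1, NDUFS1, NDUFS7, NDUFV3, NDUFA10 and NDUFA7. The probe sets used for 6 members had the x_at suffix, and among those that passed these were SDHA, ATP5F1C, ATP5MG and COX7C. A shared sign did not always mean a shared size. The line difference ran from 0.09 to 2.94 over the COX7B probe sets and from 0.77 to 1.82 over those of COX5A. Over the COX7C probe sets it ran from 0.49 to 0.63.

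The line difference of genes that act with these subunits is given by list, against 54.8% of all genes that passed (30.3% higher and 24.5% lower). Of 49 tested assembly factors, 23 were higher and 5 lower in KHOS, with a median of 0.25. NDUFAF6, an assembly factor of complex I, read 10.10, 10.20 and 10.27 in KHOS miR-1, miR-null and control, against 6.43, 6.84 and 7.20 in U-2OS, a difference of 3.37 ± 0.17 (limma adjusted p = 2.73e-05). SDHAF4, a complex II factor, read 6.55, 6.50 and 6.90 in KHOS, against 4.10 to 4.61 in U-2OS. It is among the 23 but, like COX7A1, entered the test through KHOS alone. TTC19 of complex III (2.30 ± 0.22) and COX18 (1.85 ± 0.17) and SCO1 (1.57 ± 0.16) of complex IV were also higher. Of 15 tested genes of mitochondrial biogenesis, 8 were higher and 1 lower. GABPA, the DNA-binding subunit of GABP, differed by 2.39 ± 0.27, NRF1, the gene of NRF-1, by 1.41 ± 0.15 and the coactivator gene PPARGC1B by 1.12 ± 0.20, while the nuclear receptor gene ESRRA was lower at -0.41 ± 0.14. Of 11 genes of the citric acid cycle, 5 were higher and 0 lower, led by SUCLA2 (1.86 ± 0.17) and OGDH (1.19 ± 0.18). Cytochrome c, CYCS, was higher by 0.82 ± 0.15. Of the 7 mitochondrially encoded subunits measured, 0 were higher and 3 lower in KHOS: ND2 (-0.88 ± 0.19), ATP6 (-0.64 ± 0.18) and ND4 (-0.63 ± 0.14). ND2 read 13.03, 13.13 and 13.38 in KHOS, against 14.25, 14.13 and 13.82 in U-2OS.

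Vector-transfected cells, with the miR-1 and miR-null arrays as 1 group, were set against control cells. No member passed (0 of 73), and 0.478% of all genes did (46 higher and 16 lower). At an unadjusted p under 0.05, limma gave 15 members lower and 0 higher (13.3% and 6.66% of all genes). The direction was shared: the fitted change was negative in 66 of 73 members (54.3% of all genes), and in 46 members (63.0%) both vector arrays lay below the control array in both lines, against 25.1% of all genes. Only COX7A2L had both vector arrays above control in both lines. The median change was -0.19, against -0.03 over all genes. It was -0.21 in KHOS (all genes -0.01) and -0.15 in U-2OS (all genes -0.10). Against brighter genes only, with the level filter at the 75th percentile, it was -0.22 in KHOS (all genes 0.004). In U-2OS it was then -0.14, and all genes stood lower, at -0.20. Changes of 1.2-fold or more downward in both lines, the size named in the study's design, were found in 9 members (12.3%, against 9.45% of all genes).

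This pattern depended on scale. After quantile normalization both vector arrays lay below control in both lines in 23 members (31.5%, against 21.1% of all genes). The median was then -0.22 in KHOS and -0.01 in U-2OS, where all genes stood at 0.04. In U-2OS the interquartile range of the array and its spike-in level differed between vector and control arrays, as given above. The 28S rRNA probe sets read 12.70 and 12.41 in KHOS miR-1 and miR-null, against 11.49 in KHOS control, and 13.13 and 13.02 in U-2OS miR-1 and miR-null, against 12.06 in U-2OS control. The 3′ minus 5′ signal of actin, a measure of RNA integrity, was 2.90 and 2.89 against 2.68 in KHOS and 2.49 and 2.64 against 2.40 in U-2OS, in the same order. That of GAPDH was 0.53 and 0.59 against 0.55 in KHOS, on both sides of control, and 0.46 and 0.48 against 0.42 in U-2OS. Their part in this pattern was not tested.

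**Figure D4:**
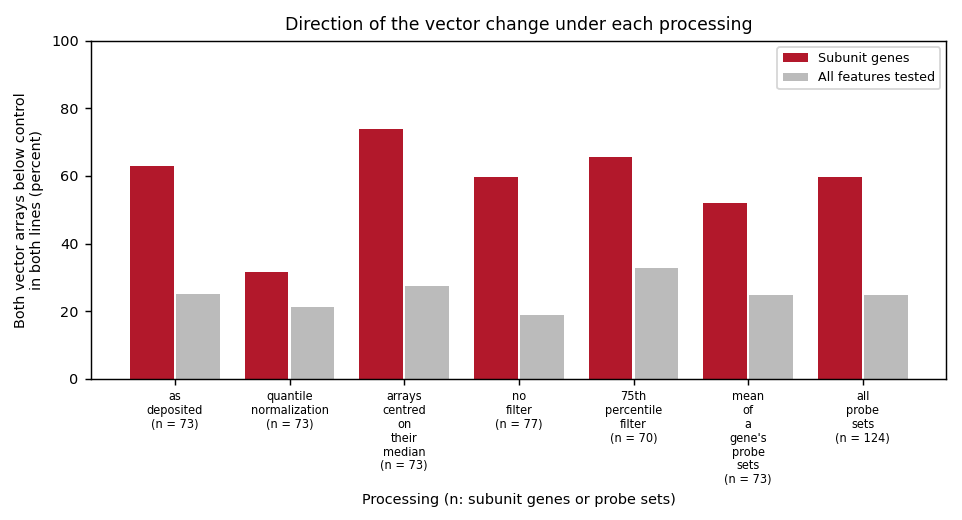
Percent of subunit genes (red) and of all features tested (grey) with both vector arrays below the control array in both lines, under each way of processing; n is the number of subunit genes, or of subunit probe sets in the last pair. The red bars run from 31.5% after quantile normalization to 74.0% with arrays centred on their medians, and each stands above its grey bar.

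By complex, the median vector change was -0.42 in F1, -0.27 in the complex I core, -0.28 in complex II, -0.20 in complex III, -0.15 in the complex I accessory subunits, -0.13 in Fo and the stalks and -0.11 in complex IV. The low place of F1 and of the complex I core came from U-2OS, with its 1 control array. Their medians there were -0.64 and -0.32, against -0.15 over all members. In KHOS they were -0.19 and -0.13, against -0.21 over all members. NDUFB10, a membrane arm subunit of complex I, had the smallest adjusted p of the members. It read 10.90 and 11.06 in KHOS miR-1 and miR-null against 11.55 in KHOS control, and 10.57 and 10.52 in U-2OS miR-1 and miR-null against 11.01 in U-2OS control. Its vector arrays were below control in both lines, with a change of -0.52 ± 0.13 (limma adjusted p = 0.0957). ATP5F1D had the largest fitted change, -0.61 ± 0.17 (limma adjusted p = 0.12), with -0.43 in KHOS and -0.80 in U-2OS. ATP5F1A (-0.42 ± 0.15), ATP5F1B (-0.45 ± 0.17) and ATP5F1C (-0.42 ± 0.12) lay in the same direction, and ATP5F1E was at 0.03 ± 0.12. Probe sets did not all share this direction: the 4 of ATP5F1C above the filter ranged from -0.45 to 0.39. The 2 of ATP5F1D were at -0.61 and -0.30. NDUFA5 (-0.56 ± 0.20), NDUFV2 (-0.50 ± 0.14) and SDHA (-0.42 ± 0.13) did not pass either. SDHC (-0.28 ± 0.15), SDHD (-0.18 ± 0.14) and ATP5IF1 (-0.23 ± 0.13) were on the same side of 0.

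Without the KHOS control array, where the change rests on U-2OS, 5 members were lower, among them NDUFA5 (-0.97), ATP5F1D (-0.80), ATP5F1B (-0.76) and SDHA (-0.57) (limma adjusted p = 0.0136, 0.0376, 0.0228 and 0.0493). Across all genes 418 were then higher and 1513 lower. When the prior variance was let follow the mean level, 5 members were lower, NDUFB10 and NDUFV2 among them, and 4.54% of all genes passed.

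**Figure D5:**
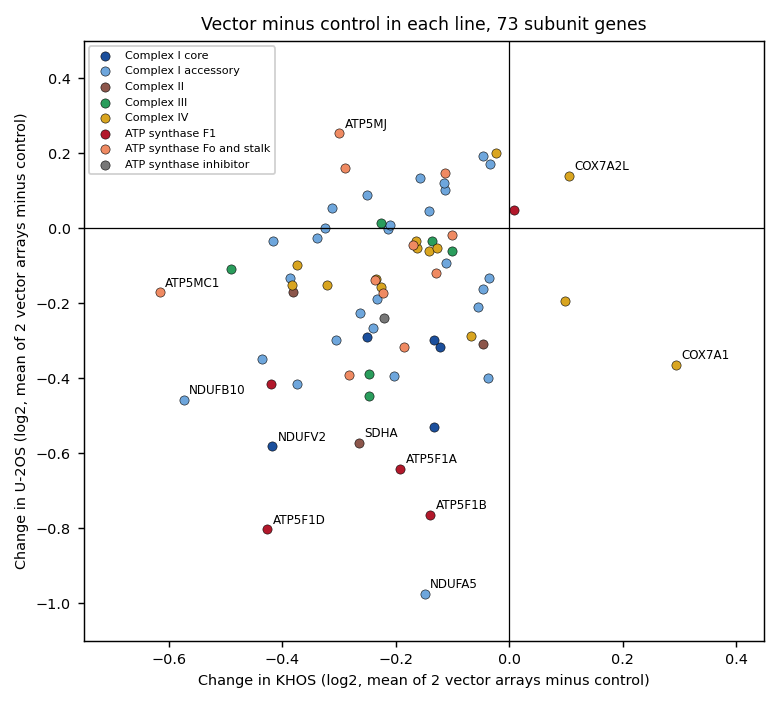
Change of each of the 73 tested subunits in KHOS (horizontal) and in U-2OS (vertical), as the mean of the miR-1 and miR-null arrays minus the control array of that line, in log2 units; colours give the complex. Of the points, 54 (74%, against 33.2% of all genes) lie below 0 in both lines, with NDUFA5, ATP5F1D and ATP5F1B lowest in U-2OS and ATP5MC1 and NDUFB10 lowest in KHOS.

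Cells with the miR-null vector alone were also set against control cells, using the same control arrays as above. No member passed and no gene did (0%). At an unadjusted p under 0.05, limma gave 1263 genes (9.75%), of which 2 were members, NDUFB10 (-0.49 ± 0.17) and ATP5F1D (-0.46 ± 0.19). The change was negative in 65 of 73 members (52.7% of all genes) and below 0 in both lines in 52 (31.5% of all genes). The median was -0.18, against -0.02 over all genes. The lowest fitted change was that of NDUFA5 (-0.53 ± 0.26). After NDUFB10 and ATP5F1D came ATP5F1B (-0.46 ± 0.22), NDUFV2 (-0.40 ± 0.17) and ATP5F1A (-0.40 ± 0.20). COX7A2L (0.15 ± 0.17) and NDUFA11 (0.07 ± 0.18) were the only members above 0 in both lines (25.3% of all genes). Without the KHOS control array the change rests on the U-2OS control array alone, and NDUFA5 and ATP5F1B were at -0.94 and -0.77. The median of the members was then -0.12, against -0.08 over all genes.

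The miR-1 vector was set against the miR-null vector, the contrast that isolates miR-1 in this design. No member and no gene passed (0%), and at an unadjusted p under 0.05 limma gave 0 members and 78 genes (0.602%). The median change of the members was -0.04, the same as over all genes, and the change was negative in 53 members (72.6%, against 61.9% of all genes). In both lines it was below 0 in 24 members (32.9%, against 33.8% of all genes). Without the KHOS miR-1 array the median of the members was 0.04. COX7A1 had the lowest value, at -0.32 ± 0.23, with 6.90 against 7.28 in KHOS miR-1 and miR-null, and 4.57 against 4.82 in U-2OS, where both arrays were below the level filter. ATP5F1D followed at -0.30 ± 0.19 and SDHC at -0.26 ± 0.17. NDUFV2 and NDUFA9 (-0.19 each) and NDUFB5 (-0.18) were the next lowest with 1 sign across the lines. Of the members above 0 in both lines the highest were ATP5IF1 at 0.14 ± 0.17, NDUFS3 at 0.09 ± 0.17, ATP5MG at 0.07 ± 0.18, ATP5F1E at 0.06 ± 0.17, and UQCRB and NDUFB1 at 0.05 each. The 95% interval of a member's change had a median half-width of 0.42, so a change within that width could not be told from 0 with these arrays.

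Whether the vector change differed between the lines was tested as an interaction, with 1 control array a line. The spread in that test came from the miR-1 and miR-null arrays within a line, which are different treatments. No member passed (0 of 73, against 2.28% of all genes), and at an unadjusted p under 0.05 limma gave 2 members with a higher and 1 with a lower value in KHOS (17.1% and 5.21% of all genes). The median line difference in the change was -0.07 in the members and 0.14 over all genes. NDUFA5 stood highest, at 0.83 ± 0.26 (limma adjusted p = 0.119), with changes of -0.15 in KHOS and -0.97 in U-2OS. COX7A1 (0.66 ± 0.30), with its U-2OS values below the level filter, and ATP5F1B (0.63 ± 0.24) followed, then ATP5F1A, NDUFS1 and ATP5F1D at 0.38 to 0.45. ATP5MJ, a small subunit of Fo, stood lowest at -0.55 ± 0.24, with -0.30 in KHOS and 0.25 in U-2OS, followed by ATP5ME, ATP5MC1, NDUFS6, UQCR10 and NDUFA1 at -0.45 to -0.37. Without the U-2OS miR-null array NDUFA5 passed (0.95, limma adjusted p = 0.0395), where 11.8% of all genes did.

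In the genes that act with the subunits the vector change passed in 0 genes, and its median over all genes was -0.03, with 54.3% negative. It was negative in 34 of 49 assembly factors (median -0.14), 10 of 15 biogenesis genes (-0.13), 10 of 11 citric acid cycle genes (-0.28) and both CYC1 and CYCS (-0.23). The 7 mitochondrially encoded subunits, with 4 negative and a median of -0.06, lay near all genes. LYRM7, an assembly factor of complex III, was at -0.70 ± 0.17 (limma adjusted p = 0.0921) and SUCLA2 at -0.68 ± 0.17 (0.0975). The line difference in the vector change passed for the assembly factor COX15, at 1.32 ± 0.23 (limma adjusted p = 0.0335), with 9.07 and 9.20 in KHOS miR-1 and miR-null against 9.07 in KHOS control, and 7.23 and 7.17 in U-2OS miR-1 and miR-null against 8.45 in U-2OS control.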

How the data were processed

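RNA of 6 human cell line cultures was hybridized to Affymetrix U133 Plus 2.0 arrays. The deposited log2 values were made by the authors with RMA in Qlucore 3.2, per the series' design text and the submitters' processing notes. RMA pulls low values together, so differences of dim probe sets are likely understated.

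Probe sets with 1 gene symbol in the platform annotation were used, and a gene took its probe set with the highest mean over the 6 arrays. Genes with a mean of at least 5.11 were tested, 12958 of 19775. Differences were fitted with limma 3.58.1 in R 4.3.3 across all tested genes, with Benjamini-Hochberg adjustment over all of them and a threshold of 0.05. The line difference and the contrasts of miR-null with control and of miR-1 with miR-null came from 1 additive fit of line and condition (2 residual degrees of freedom), the vector change from a fit of line and vector (3), and its line difference from their interaction (2). The Mann-Whitney test that the design text names was not used. The number of arrays limits the precision. Scripts were tested on simulated data.

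The members and the gene lists were chosen with earlier results of these data known. Genes named are the members that passed, up to 12 in each direction, filled up to 6 with the largest changes of the same sign in both lines; the pairs of tissue forms, the SDH genes and ATP5IF1 are named always, and other members are named to describe their complex. Sequences came from RefSeq tables of build GRCh38.p14. Alternatives were quantile normalization, centring, other level filters, other probe set rules, a prior variance that follows the mean, a fit without the cell line term, and leaving out each array.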

Additional observations from a re-analysis of the deposited data

How the results depend on the processing

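Each condition had 1 array a line, so the cell line is the block that pairs conditions. Without that replicate block no member passed in the vector, miR-null or miR-1 contrast, as with it. The medians of -0.19, -0.18 and -0.04 could not change, because every condition has the same number of arrays in each line. Of the values of named genes under the alternatives 765 kept direction and side of the threshold, 34 fell short of the threshold (all of KHOS minus U-2OS), 13 passed newly and 8 turned their direction. In the other contrasts no member had passed, so none could fall short. Of the KHOS minus U-2OS values 263 kept both. These tallies hold the same line fit more than once, because leaving out either line's array of a condition gives 1 fit. The 765 is therefore no measure of stability.

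With quantile normalization the median line difference turned to -0.031, the vector and miR-null medians were -0.13 and -0.11, and 23 members had both vector arrays below control in both lines. With arrays centred on their medians 7 members were lower in KHOS, the median line difference was 0.20, the miR-null median -0.22, and ATP5F1E turned to -0.0072 in the vector contrast. With the mean of a gene's probe sets the vector and miR-null medians were -0.13 and -0.12, NDUFV3 turned to 0.0052 between the lines, ATP5F1E to -0.27 in the vector contrast, NDUFA11 to -0.048 in miR-null and UQCRB to -0.011 in miR-1. With all 124 probe sets 44 were higher and 15 lower in KHOS (47.6%, against 52.8% of all probe sets tested). With vector 1 was lower (0.806%, against 0.965% of all probe sets that passed). In 74 both vector arrays lay below control in both lines (59.7%, against 24.9% of all probe sets). When the prior variance was let follow the mean 5 members were lower with vector (6.85%, against 4.54% of all genes that passed). The line difference in the vector change then passed for 3 higher and 1 lower (5.48%, against 6.66% of all genes).

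Leaving out 1 array gave 13 to 26 members higher and 4 to 15 lower in KHOS, 0 to 5 lower with vector, 0 to 2 lower with miR-null, and 0 to 1 higher in the line difference of the vector change. The miR-null median ran from -0.20 to -0.10 and the miR-1 median from -0.13 to 0.036, highest when the KHOS miR-1 array was left out. Over the same fits NDUFA11 ran from -0.046 to 0.19 in miR-null, and ATP5MG from -0.0096 to 0.15 and UQCRB from -0.0076 to 0.10 in miR-1. The causes were not tested. The line difference in the vector change could not be fitted without a control array.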

Other observations

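The 4 probe sets of antisense or divergent non-coding genes next to complex I genes, left out of the members, gave these values. NDUFV1-DT, which starts beside NDUFV1 and runs away from it, read 6.70, 6.56 and 6.62 in KHOS miR-1, miR-null and control, against 7.32, 7.02 and 7.22 in U-2OS. Every KHOS array lay below every U-2OS array. NDUFB2-AS1 read 5.01, 5.01 and 4.90 in KHOS against 5.48, 5.14 and 5.02 in U-2OS. The pair of NDUFV2-AS1 probe sets read 5.03, 5.35 and 5.01 in KHOS against 5.52, 5.74 and 5.46 in U-2OS, and 4.50, 4.13 and 4.40 in KHOS against 4.41, 4.81 and 4.18 in U-2OS. NDUFB2-AS1 and the dimmer NDUFV2-AS1 probe set had means below the level filter.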
